A study of Mus musculus with 27 samples.

Results

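The brush border digestive hydrolases are membrane enzymes that finish the breakdown of food on the microvilli of the gut lining. They were taken here as 9 genes listed by symbol, Sis, Mgam, Treh, Lct, Anpep, Dpp4, Mep1a, Mep1b and Alpi, and each matched 1 Ensembl ID among the 46078 gene rows of the deposited count tables. The RNA was from colonic epithelium scraped from 27 male mice (C57BL/6), 28 days old at the first gavage and 56 days old at collection. Each mouse received sesame oil vehicle or TCDD in it by gavage, every 4 days for 28 days and 7 times in all. The 8 doses were 0.01 and 0.03, then 0.1 and 0.3, then 1 and 3, and at the top 10 and 30 μg/kg, which with vehicle makes 9 groups of 3 mice. TCDD is a persistent dioxin and a ligand of AHR, the aryl hydrocarbon receptor, and the comparison of dose groups asks which transcripts follow the dose.

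Starch and sugars, proteins and phosphate esters leave the gut lumen only after brush border enzymes have cut them to pieces that transporters can take up. Sucrase-isomaltase, maltase-glucoamylase, trehalase and lactase cut sugars, aminopeptidase N, dipeptidyl peptidase 4 and the meprins cut peptides, and intestinal alkaline phosphatase removes phosphate groups, among them those of bacterial lipopolysaccharide. Most of these enzymes are textbook markers of small intestinal enterocytes, and CDX2 and GATA4 are known to act on the Sis and Lct promoters.

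At 30 μg/kg the transcripts of 3 of the 9 hydrolases rose against vehicle: Lct (lactase), Anpep (aminopeptidase N) and Alpi (intestinal alkaline phosphatase). The fitted fold changes were 9.03 for Lct, 3.50 for Anpep and 2.14 for Alpi. All genes that passed the filter were tested in edgeR's quasi-likelihood fit, and 6.16% of them were called at 30 μg/kg, where a call needs a Benjamini-Hochberg adjusted p under 0.05 together with at least a 1.5-fold change (2.95% were higher and 3.21% lower). Sis, Mgam, Treh, Dpp4, Mep1a and Mep1b were not called. The second mouse at 30 μg/kg held the highest CPM of Lct, Alpi and Treh of all 27 mice, and without it none of Lct, Anpep and Alpi was called.

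The promoter windows of the 3 genes called at 30 μg/kg are shown first, and those of Sis and Mgam, related sugar-cutting enzymes that were not called, beside them for contrast. Each window is read from RefSeq on GRCm38.p6 and runs from 250 bases before to 50 bases after the annotated start, written 5′ to 3′ on the strand of the gene. A RefSeq window was matched for 8 of the 9 genes, all but Mep1b. Capitals mark matches, on either strand, to GCGTG, the core of the dioxin response element bound by AHR. They also mark TTTAT, the CDX core, and GATAA, the GATA core, likewise on either strand, and matches may overlap.
Lct: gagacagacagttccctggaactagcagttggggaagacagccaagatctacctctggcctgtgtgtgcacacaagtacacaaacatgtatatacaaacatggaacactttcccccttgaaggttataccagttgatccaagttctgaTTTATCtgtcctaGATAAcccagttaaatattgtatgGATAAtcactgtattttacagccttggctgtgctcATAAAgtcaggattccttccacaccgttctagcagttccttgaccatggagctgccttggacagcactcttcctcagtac
Anpep: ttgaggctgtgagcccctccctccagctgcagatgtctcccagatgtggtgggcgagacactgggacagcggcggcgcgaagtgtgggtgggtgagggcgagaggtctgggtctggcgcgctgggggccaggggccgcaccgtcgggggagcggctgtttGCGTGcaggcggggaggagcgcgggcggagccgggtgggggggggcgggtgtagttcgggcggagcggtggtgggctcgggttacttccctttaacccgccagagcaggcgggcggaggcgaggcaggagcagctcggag
Alpi: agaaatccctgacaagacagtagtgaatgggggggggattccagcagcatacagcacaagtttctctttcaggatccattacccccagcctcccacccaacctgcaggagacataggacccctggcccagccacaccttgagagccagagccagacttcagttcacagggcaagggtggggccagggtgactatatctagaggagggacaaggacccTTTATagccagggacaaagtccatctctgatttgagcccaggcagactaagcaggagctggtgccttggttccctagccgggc
Sis: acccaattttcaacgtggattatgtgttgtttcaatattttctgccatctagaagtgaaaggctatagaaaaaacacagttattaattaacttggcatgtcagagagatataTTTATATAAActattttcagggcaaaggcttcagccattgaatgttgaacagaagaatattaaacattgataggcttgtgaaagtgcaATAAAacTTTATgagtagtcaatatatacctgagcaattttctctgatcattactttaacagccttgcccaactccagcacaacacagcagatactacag
Mgam: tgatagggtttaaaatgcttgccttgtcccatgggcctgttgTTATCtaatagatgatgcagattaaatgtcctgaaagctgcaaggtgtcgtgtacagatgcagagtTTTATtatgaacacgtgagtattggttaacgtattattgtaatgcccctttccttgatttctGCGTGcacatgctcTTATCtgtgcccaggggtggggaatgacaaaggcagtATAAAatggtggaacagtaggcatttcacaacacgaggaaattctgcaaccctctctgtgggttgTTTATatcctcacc

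The windows lie at chr1:128328269-128328568 for Lct, chr7:79848161-79848460 for Anpep, chr1:87101557-87101856 for Alpi and chr3:72967814-72968113 for Sis, all on the minus strand, and at chr6:40628581-40628880 on the plus strand for Mgam. The dioxin response element core occurred in 2 of the 8 windows, Anpep with 1 match starting 90 bases before the start and Mgam with 1 match starting 80 bases before it, against 32.5% of 27025 RefSeq promoters of the same length. The CDX core occurred in 6 of 8 windows (40.9% of all promoters) and the GATA core in 4 of 8 (25.8%). Lct held 3 GATA cores and 2 CDX cores within 102 bases upstream of its start, and Alpi held a single CDX core. G or C made up 72.3% of the Anpep window, 56.3% of that of Alpi and 44.7% of that of Lct. For Anpep, GENCODE M21 also annotates protein-coding transcripts that start at positions 79842352 and 79861059 of chromosome 7, outside this window, whose RefSeq start is 79848210. These matches describe letters in the windows only. On GRCm38 (GENCODE M21), Sis (ENSMUSG00000027790) spans chr3:72888557-72967863, Mgam (ENSMUSG00000068587) chr6:40628831-40769123, Treh (ENSMUSG00000032098) chr9:44673233-44686305, Lct (ENSMUSG00000026354) chr1:128284756-128328318 and Alpi (ENSMUSG00000079440) chr1:87098002-87101606. Anpep (ENSMUSG00000039062) spans chr7:79821803-79861059, Dpp4 (ENSMUSG00000035000) chr2:62330073-62412231 and Mep1a (ENSMUSG00000023914) chr17:43474324-43502812, and Mep1b is ENSMUSG00000024313. All 9 are protein-coding, and their counts are of reads on exons.

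The mice had 9305441 to 14371035 counts on genes (median 11651026), and 16496 genes, including all 9 hydrolases, passed the filter on low counts. Levels are given as CPM, read counts scaled to a common TMM-normalized library size. Cyp1a1, the classic AHR target, had 0 to 1 counts in vehicle mice and 23969 to 29287 counts at 30 μg/kg. Of 16 index barcodes in the file names, 11 recurred. With the samples split where barcodes recurred, a first set held 16 mice and a second set held 11. The first set covered vehicle and all doses up to 0.3 μg/kg plus the first mouse at 1 μg/kg, and the second set covered the rest. The other 5 barcodes appeared once and were placed by sample order. The labels do not say that the 3 mice of a group were housed or prepared apart, so p-values measure the spread between these samples. Dose and index set therefore cannot be told apart in a comparison of 3, 10 or 30 μg/kg with vehicle. The 5 epithelium markers summed to between 5215 and 7326 CPM in every mouse. The 8 muscle markers summed to between 50.7 and 90.1 CPM in vehicle mice and between 259 and 789 CPM at 30 μg/kg, and their part in the hydrolase changes was not tested.

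The 9 hydrolases differed widely in level in vehicle mice, and the description of these enzymes as low in the colon did not hold for all of them. On the scale of CPM per kb of exon, Mep1a, the meprin α subunit, was highest at 126 ± 4.58 (SD, n = 3). Mgam, maltase-glucoamylase, followed at 70.5 ± 2.54 and Mep1b, the meprin β subunit, at 47.1 ± 4.70 CPM per kb. Alpi had 14.6 ± 0.462, Dpp4 had 6.45 ± 0.294, Anpep had 3.66 ± 2.18 and Sis had 3.37 ± 1.27 CPM per kb. Treh at 0.163 ± 0.120 and Lct at 0.132 ± 0.0627 CPM per kb were the lowest. The ranges of the 3 vehicle mice did not overlap between neighbours in this order except for Anpep with Sis and for Treh with Lct.

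Over all 27 mice the mean CPM of Mgam lay above that of 99.3% of the tested genes, that of Mep1a above 98.8% and that of Mep1b above 92.0%. Together Mgam and Mep1a made up 71.5% to 82.9% of the summed CPM of the 9 genes in each mouse. Treh lay above 11.1% of the tested genes and had 1 to 30 counts per mouse, and Lct lay above 28.6% with 1 to 224 counts, so these 2 genes carry the largest counting error.

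**Figure D1:**
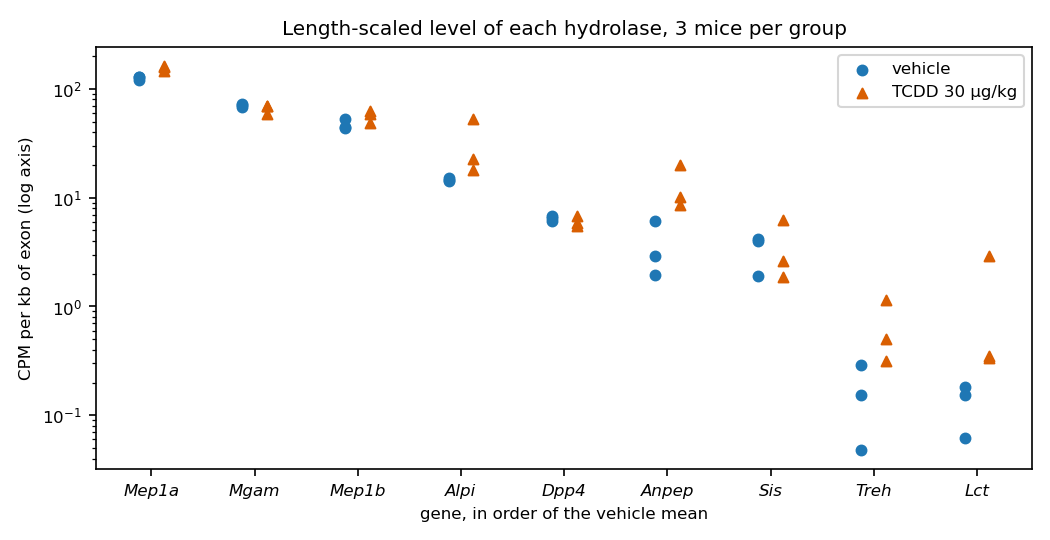
Length-scaled level (CPM per kb of exon, log axis) of each hydrolase in the 3 vehicle mice (circles) and the 3 mice at 30 μg/kg TCDD (triangles), genes in order of the vehicle mean. Mep1a leads at 126 and Lct is last at 0.132 CPM per kb in vehicle mice, and the triangles lie above the circles for Mep1a, Alpi, Anpep, Treh and Lct.

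The spread between mice of 1 group also set the genes apart. The coefficient of variation within a dose group had a median over the 9 groups of 3.46% for Mgam, 6.12% for Dpp4, 11.4% for Mep1a and 13.4% for Mep1b. It was 18.97% for Alpi, 43.5% for Sis, 48.2% for Anpep, 57.3% for Treh and 59.5% for Lct. The highest CPM over 27 mice was 1.33 times the lowest for Mgam and 224 times the lowest for Lct.

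**Figure D2:**
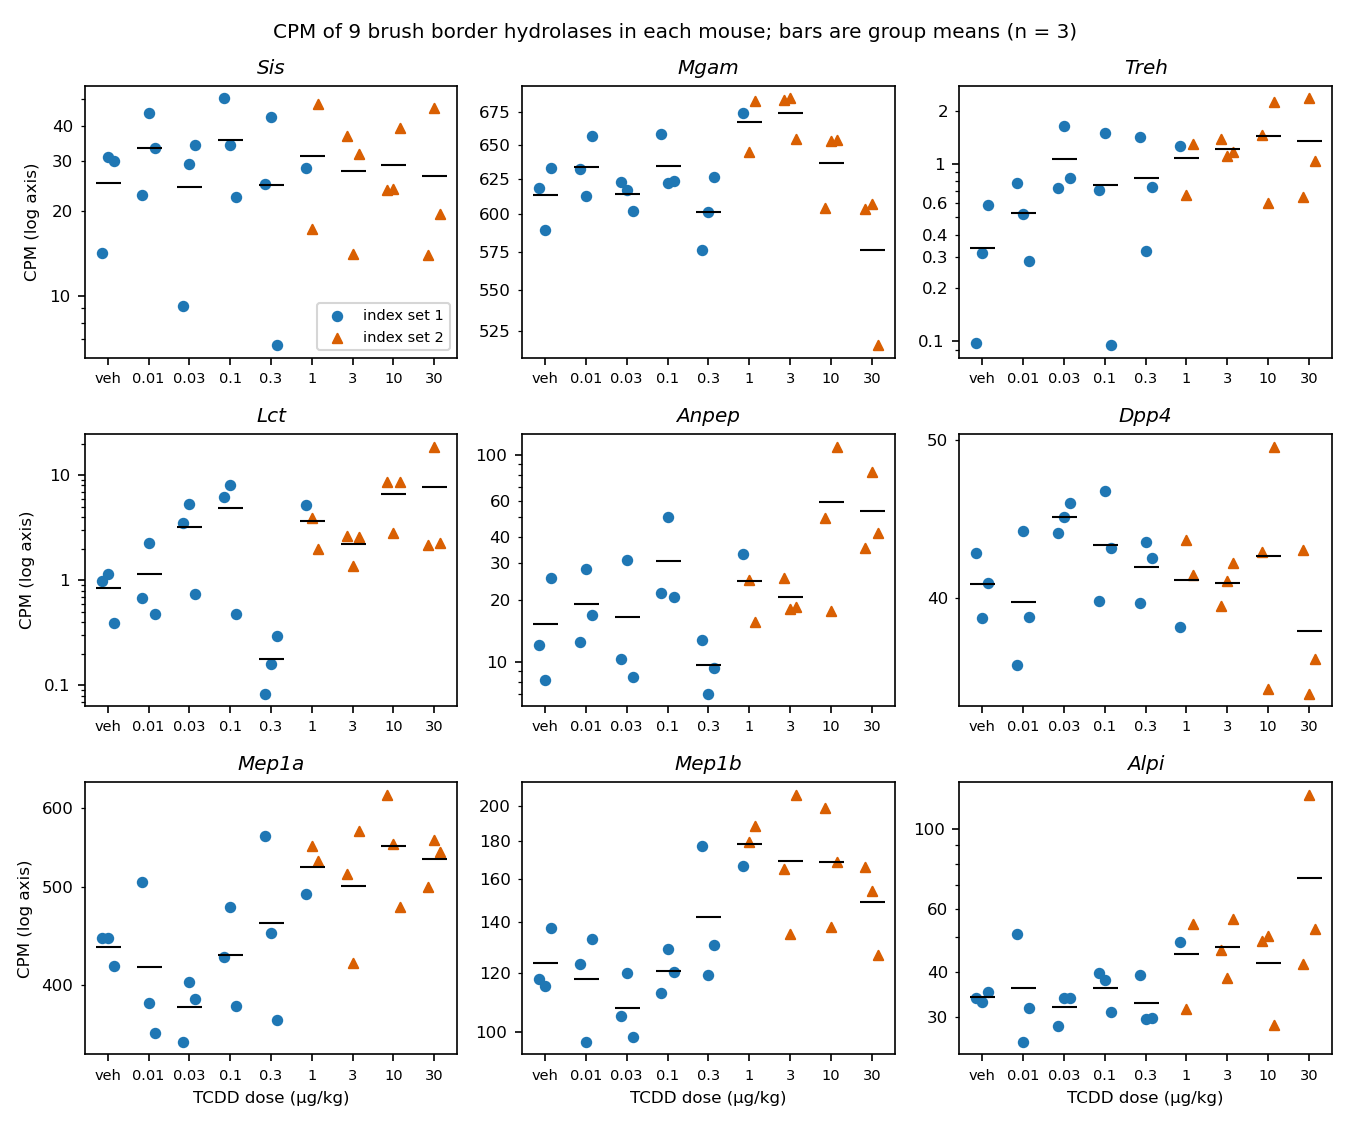
CPM (log axis, a separate scale for each gene) of the 9 hydrolases in each of 27 mice by TCDD dose, with circles for the first and triangles for the second index set and bars for the mean of 3 mice. Lct, Anpep and Alpi have their highest means at 10 or 30 μg/kg with wide spread between mice, and Mgam and Dpp4 vary by less than 1.5 times over all mice.

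Among the sugar-cutting enzymes, Lct, which splits lactose and is best known from suckling, was scarce in vehicle mice at 0.984, 1.16 and 0.393 CPM. At 10 μg/kg it reached 8.62, 2.83 and 8.65 CPM, and at 30 μg/kg 2.16, 18.7 and 2.24 CPM. Every mouse at both doses lay above the vehicle range, and at 30 μg/kg the second mouse stood well above the other 2. The fitted log2 fold change was 3.17 (SE 0.93, edgeR adjusted p = 0.0307) at 30 μg/kg and 2.98 (SE 0.94, edgeR adjusted p = 0.0820) at 10 μg/kg. Lower doses gave no steady course. Lct had 6.14, 8.12 and 0.476 CPM at 0.1 μg/kg and 0.0838, 0.161 and 0.296 CPM at 0.3 μg/kg, the latter 3 mice all below the vehicle range. At 1 μg/kg it had 5.23, 3.89 and 1.99 CPM and at 3 μg/kg 2.67, 1.37 and 2.56 CPM, again all above the vehicle range. The log2 fold changes at 0.1, 0.3, 1 and 3 μg/kg were 2.53, -2.12, 2.14 and 1.38, with SEs of 0.96 to 1.52, and none passed the threshold.

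Treh, which splits trehalose, was the scarcest of the 9 genes in CPM. Vehicle mice had 0.0984, 0.316 and 0.589 CPM and mice at 30 μg/kg had 0.647, 2.34 and 1.03 CPM, so the groups did not overlap. The log2 fold change of 1.95 (SE 0.74, edgeR adjusted p = 0.0889) did not pass the threshold, nor did that of 2.07 (SE 0.73, edgeR adjusted p = 0.122) at 10 μg/kg. The 3 mice at 3 μg/kg, with 1.38, 1.11 and 1.16 CPM, also lay above the vehicle range, as did those at 0.03, 1 and 10 μg/kg. The last 2 annotated bases of Treh overlap the more abundant Phldb1 (988 to 1645 counts per mouse) on the other strand, and whether the counting used strand is not given in the sources used here.

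Sis, sucrase-isomaltase, which splits sucrose and isomaltose, showed no dose pattern. It had 14.2, 31.1 and 30.1 CPM in vehicle mice and 13.9, 46.4 and 19.4 CPM at 30 μg/kg. The groups overlapped at every dose, the log2 fold changes ran from -0.06 to 0.50, and the SE of 0.56 leaves room for changes of either sign. Mgam, its close relative that releases glucose from starch fragments, was abundant and even. It had 618, 589 and 633 CPM in vehicle mice and 604, 607 and 516 CPM at 30 μg/kg, a log2 fold change of -0.09 (SE 0.07, edgeR adjusted p = 0.403). Its highest group mean was 674 ± 17.8 CPM (SD, n = 3) at 3 μg/kg, where all mice lay above the vehicle range, with a log2 fold change of 0.14 (SE 0.07, edgeR adjusted p = 0.314).

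Among the peptidases, Anpep, which removes single amino acids from the N-terminus of peptides, had 12.0, 8.12 and 25.3 CPM in vehicle mice. At 30 μg/kg it had 35.3, 82.7 and 41.9 CPM, all above the vehicle range. At 10 μg/kg the mice had 49.7, 17.6 and 110 CPM, and the second of them lay within the vehicle range. The log2 fold change was 1.81 (SE 0.57, edgeR adjusted p = 0.0427) at 30 μg/kg and 1.96 (SE 0.57, edgeR adjusted p = 0.0595) at 10 μg/kg. At 0.1 μg/kg Anpep had 21.5, 50.3 and 20.6 CPM and at 0.3 μg/kg 12.7, 7.02 and 9.33 CPM, both overlapping vehicle. At 3 μg/kg Anpep had 25.6, 18.01 and 18.3 CPM, a log2 fold change of 0.44 against vehicle (SE 0.58, edgeR adjusted p = 0.756).

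The meprins, metalloproteases whose α and β subunits assemble with each other, were abundant. Mep1a had 445, 446 and 418 CPM in vehicle mice and 501, 558 and 543 CPM at 30 μg/kg, and the groups did not overlap. Its log2 fold change of 0.29 (SE 0.14, edgeR adjusted p = 0.182) did not pass. Mep1b had 118, 115 and 138 CPM in vehicle mice, 167, 179 and 188 CPM at 1 μg/kg, where no mouse overlapped the vehicle range, and 166, 154 and 127 CPM at 30 μg/kg, where the groups overlapped. Its largest log2 fold change was 0.53 (SE 0.16, edgeR adjusted p = 0.229), at 1 μg/kg. Dpp4, which releases dipeptides from the N-terminus of peptides and inactivates incretin hormones, was steady, with 42.6, 38.9 and 40.8 CPM in vehicle mice and 42.8, 34.96 and 36.7 CPM at 30 μg/kg. Its log2 fold changes lay between -0.10 and 0.14 at all 8 doses. Dpp4 shares 2.92% of its 50-base transcript windows with Gm13561, an antisense gene that had 0 to 2 counts per mouse.

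Alpi was even in vehicle mice at 33.9, 33.1 and 35.2 CPM. At 30 μg/kg it had 42.1, 124 and 52.8 CPM, all above the vehicle range, and the second mouse stood well above the other 2. The log2 fold change was 1.10 (SE 0.31, edgeR adjusted p = 0.0238). With 48.7, 50.3 and 28.5 CPM at 10 μg/kg, Alpi overlapped vehicle, with a log2 fold change of 0.32 (SE 0.31, edgeR adjusted p = 0.635). Alpi shares 2.40% of its 50-base transcript windows with other genes, all of them alkaline phosphatase relatives (Akp3, Akp-ps1 and Alppl2), and Akp3, named for that overlap, had 0 to 0.843 CPM in vehicle mice and 0 to 0.167 CPM at 30 μg/kg.

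**Figure D3:**
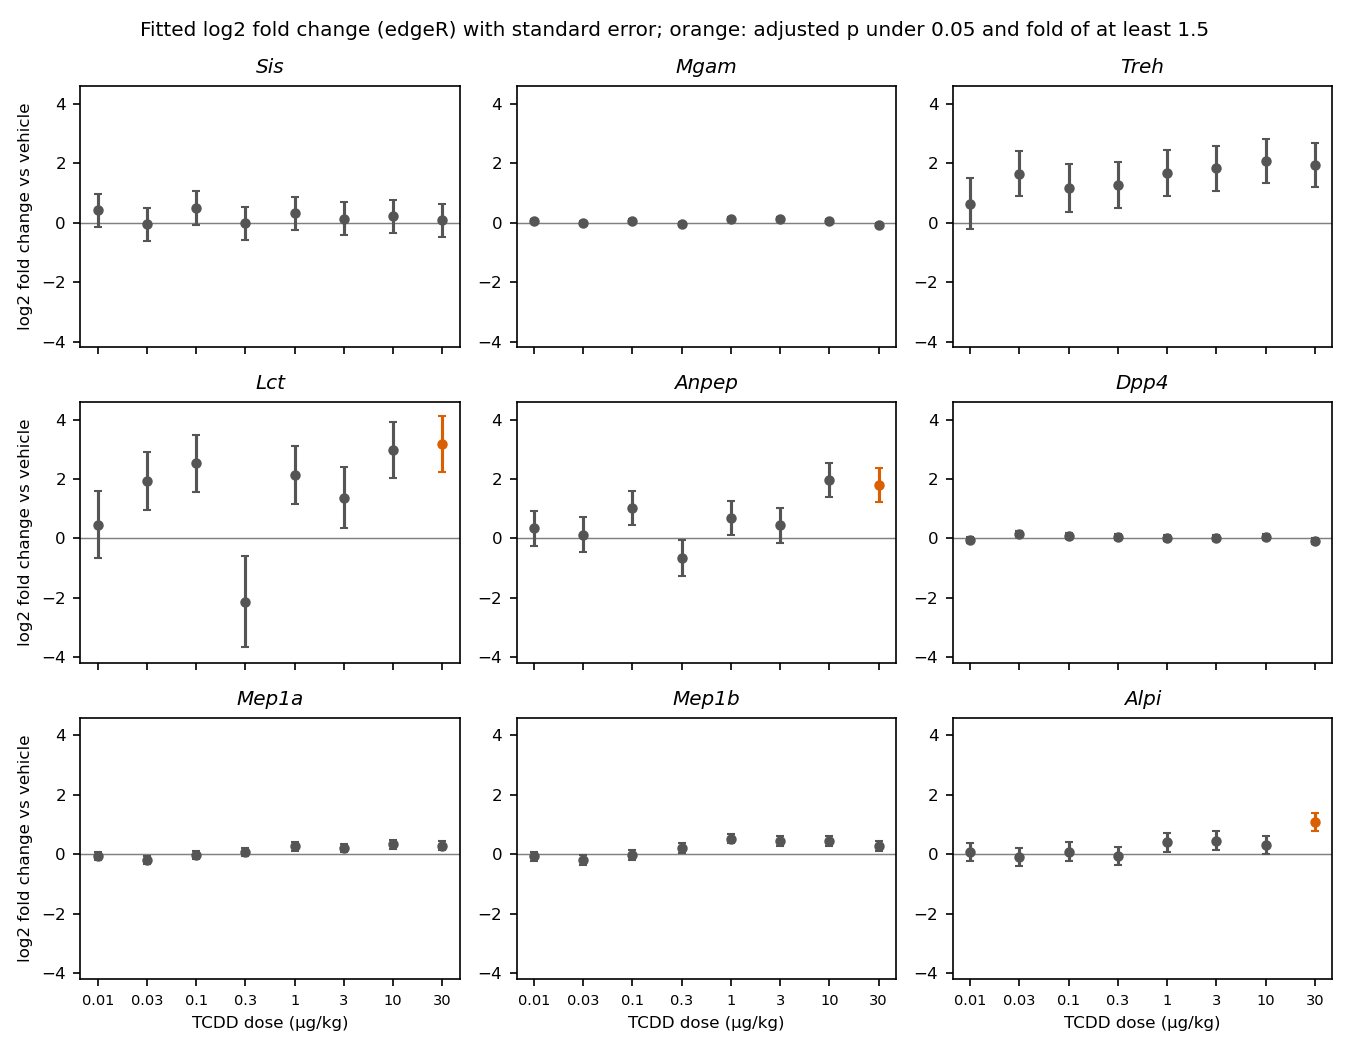
Fitted log2 fold change against vehicle at each of 8 TCDD doses for the 9 hydrolases, with bars for the standard error and orange for values with an adjusted p under 0.05 and a fold of at least 1.5. Lct (3.17), Anpep (1.81) and Alpi (1.10) are orange at 30 μg/kg, and Mgam and Dpp4 stay near 0 at every dose.

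By dose, edgeR called 0 of the 9 hydrolases at any dose below 30 μg/kg. Of all tested genes it called 0% at each of the lowest 4 doses, 0.2% at 1, 0.697% at 3 and 1.78% at 10 μg/kg. At an unadjusted p under 0.05 the number of the 9 genes was 0, 1, 1 and 0 at the lowest 4 doses in order, and 3, 2, 5 and 5 at the top 4. The share of all tested genes under that p was 6.35%, 4.64%, 6.37% and 5.19% at the lowest 4 doses and 9.80%, 16.0%, 17.8% and 27.02% at the top 4, so that 2 of 9 at 3 μg/kg was near the background. DESeq2 called 2 of them at 10 μg/kg, Anpep and Lct, beside 2.23% of all tested genes, and 0 at the lower doses. For the 9 genes the median log2 fold change at the top 4 doses (1, 3, 10 and 30 μg/kg) was 0.40, 0.44, 0.33 and 0.29, where that of all tested genes was between -0.01 and -0.00. At 30 μg/kg the 3 mice lay wholly above the 3 vehicle mice for 5 of the 9 genes (Alpi, Anpep, Treh, Lct and Mep1a), against 14.5% of all tested genes, and wholly below for 0, against 15.2%. At 10 μg/kg this held for 4 genes (Treh, Lct, Mep1a and Mep1b) against 12.1%, at 3 μg/kg for 4 (Mgam, Alpi, Treh and Lct) against 13.1% and at 1 μg/kg for 5 (Mgam, Treh, Lct, Mep1a and Mep1b) against 8.78%. Wholly below vehicle were 0 of the 9 genes at 10, 3 and 1 μg/kg, against 13.1%, 11.5% and 7.4% of all tested genes. At 0.03 μg/kg Mep1a lay wholly below and Treh and Dpp4 wholly above vehicle, and at 0.3 μg/kg Lct lay wholly below. At 0.01 and 0.1 μg/kg all 9 overlapped vehicle. The share of all tested genes was not computed at these 4 doses. An exact two-sided permutation test of mean CPM on 3 mice against 3 gave p = 0.1 for Alpi, Anpep, Treh, Lct and Mep1a at 30 μg/kg against vehicle, which is the smallest p this design allows.

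The 3 calls at 30 μg/kg were lost without single mice and with other fits. With limma voom 0 of the 9 genes were called, with adjusted p of 0.236 for Lct, 0.0576 for Anpep and 0.0577 for Alpi, beside 5.10% of all tested genes. With only the 2 compared groups in the edgeR fit Anpep alone was called, beside 3.93% of all tested genes. Leaving out the second mouse at 30 μg/kg gave a log2 fold change of 1.38 for Lct (edgeR adjusted p = 0.394), 1.34 for Anpep (edgeR adjusted p = 0.192) and 0.48 for Alpi (edgeR adjusted p = 0.284). Without the first or the second vehicle mouse 0 of the 9 genes were called, and without the third vehicle mouse only Anpep was, while the log2 fold changes of the 3 genes stayed between 1.08 and 3.46. Calls over all tested genes also fell, from 1016 to 593, 735 and 660 without vehicle mouse 1, 2 and 3, and to 733 without the second mouse at 30 μg/kg. With the index set as a term the log2 fold changes were 4.02 for Lct, 2.53 for Anpep and 1.27 for Alpi. Of the 9 genes 0 were then called, beside 731 of all tested genes. In this fit the term rested on the 1 μg/kg group alone, with 1 mouse in the first set and 2 in the second.

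A slope over dose rank, from vehicle as 0 to 30 μg/kg as 8, passed the test for 6 of the 9 genes, all rising, against 11.8% of all tested genes that rose and 23.4% that changed in either direction. The log2 slope per dose step was 0.29 for Lct (SE 0.09, edgeR adjusted p = 0.0227), 0.22 for Anpep (SE 0.06, edgeR adjusted p = 0.00502) and 0.19 for Treh (SE 0.06, edgeR adjusted p = 0.0170). It was 0.11 for Alpi (SE 0.03), 0.08 for Mep1b (SE 0.02) and 0.06 for Mep1a (SE 0.01), each past the threshold, while Sis, Mgam and Dpp4 had slopes of -0.01 to 0.00. With the index set as a term 0 of the 9 slopes passed, and within either set alone 0 passed. Few genes of any kind passed there, 11 of all tested genes with the term, 1 within the first set and 487 (2.95%) within the second, against 3865 without these limits. Without the second mouse at 30 μg/kg 4 passed, and without it and the third mouse at 10 μg/kg, a pair left out after the data had been seen, 3 passed, beside 19.2% and 16.9% of all tested genes. Within the second set the slopes of Anpep (0.59, SE 0.20) and Lct (0.62, SE 0.27) were larger than over all mice, whereas that of Mep1b was -0.09 (SE 0.05).

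Comparisons among 30, 10 and 3 μg/kg contrast only mice of the second index set. The fit behind their SEs and p-values held all 27 mice. Between 30 and 3 μg/kg 0 of the 9 hydrolases were called in edgeR, against 0.461% of all tested genes, and at an unadjusted p under 0.05 there were 4, with Lct, Anpep and Alpi higher and Mgam lower at 30 μg/kg, beside 1810 of 16496 tested genes. The log2 differences were 1.80 for Lct (SE 0.79), 1.37 for Anpep (SE 0.55), 0.64 for Alpi (SE 0.30) and -0.23 for Mgam (SE 0.07). Without the second mouse at 30 μg/kg they were -0.0012 for Lct, 0.91 for Anpep, 0.0147 for Alpi and -0.27 for Mgam, so those of Lct and Alpi rested on that mouse. Between 10 and 3 μg/kg 0 of the 9 were called (0.0485% of all tested genes), with log2 differences of 1.61 for Lct (SE 0.80) and 1.52 for Anpep (SE 0.55), of which Anpep had an unadjusted p under 0.05, as did 4.80% of all tested genes. Between 30 and 10 μg/kg 0 were called (0% of all tested genes), and 2, Alpi (0.78, SE 0.30) and Mgam (-0.15, SE 0.07), had an unadjusted p under 0.05, as did 6.00% of all tested genes. DESeq2 called 0 of the 9 in each of these 3 comparisons, beside 0.915%, 0.0849% and 0.0242% of all tested genes. Doses of the second set were then pooled, 10 and 30 against 1 and 3 μg/kg, a grouping chosen after the data had been seen. Anpep had a mean of 56.2 ± 33.9 CPM (SD) in the 6 mice at 10 and 30 μg/kg and of 20.5 ± 4.47 CPM (SD) in the 5 mice of that set at 1 and 3 μg/kg, with overlapping ranges of 17.6 to 110 and 15.6 to 25.6 CPM (exact two-sided permutation test, p = 0.0216, 1 of 9 such comparisons made). The edgeR log2 difference was 1.47 (SE 0.36, adjusted p = 0.114 over all genes), and 0 of the 9 genes were called, against 0.327% of all tested genes. Mgam was lower in the 6 mice, at 606 ± 49.9 against 670 ± 19.6 CPM (exact two-sided permutation test, p = 0.0173, edgeR adjusted p = 0.406).

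Across the 27 mice, some of the hydrolases rose and fell together. Of the 36 pairs, 7 passed a Benjamini-Hochberg threshold of 0.05 by both Pearson's r and Spearman's rho of log2 CPM with 100000 permutations. Mep1a and Mep1b, the 2 meprin subunits, had r = 0.75 (p = 1e-05, the smallest that these permutations give, adjusted 0.00018) and rho = 0.72 (p = 8e-05, adjusted 0.00096). Leaving out the 2 mice farthest from the median of Mep1a gave r = 0.77, and r was 0.61 in the first and 0.46 in the second index set. Anpep and Lct had r = 0.75 (p = 1e-05, adjusted 0.00018) and rho = 0.71 (p = 6e-05, adjusted 0.00096). Their r was 0.67 without the third mouse at 10 μg/kg and the second at 30 μg/kg, 0.63 in the first set and 0.81 in the second.

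Alpi followed Mep1a with r = 0.67 (p = 3e-05, adjusted 0.00036) and rho = 0.74 (p = 3e-05, adjusted 0.00096), and r was 0.73 in the first and 0.42 in the second set. Alpi and Dpp4 went opposite ways, with r = -0.66 (p = 0.00014, adjusted 0.00126) and rho = -0.64 (p = 0.00052, adjusted 0.00468), and r was -0.60 in the first and -0.74 in the second set. Treh went with Anpep (r = 0.58, p = 0.00169, adjusted 0.0101) and with Lct (r = 0.58, p = 0.00141, adjusted 0.0101). The pair of Alpi and Mep1b (r = 0.46, p = 0.0130, adjusted 0.0468) did not hold in the second set, where r was -0.07. These values share the dose of each mouse, and the permutations did not hold the dose fixed. After the mean of each dose group was taken off, r was 0.47 for Mep1a with Mep1b, 0.56 for Anpep with Lct, 0.57 for Alpi with Mep1a and -0.66 for Alpi with Dpp4. It was 0.67 for Anpep with Treh, 0.59 for Treh with Lct and 0.29 for Alpi with Mep1b, and none of these was tested.

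**Figure D4:**
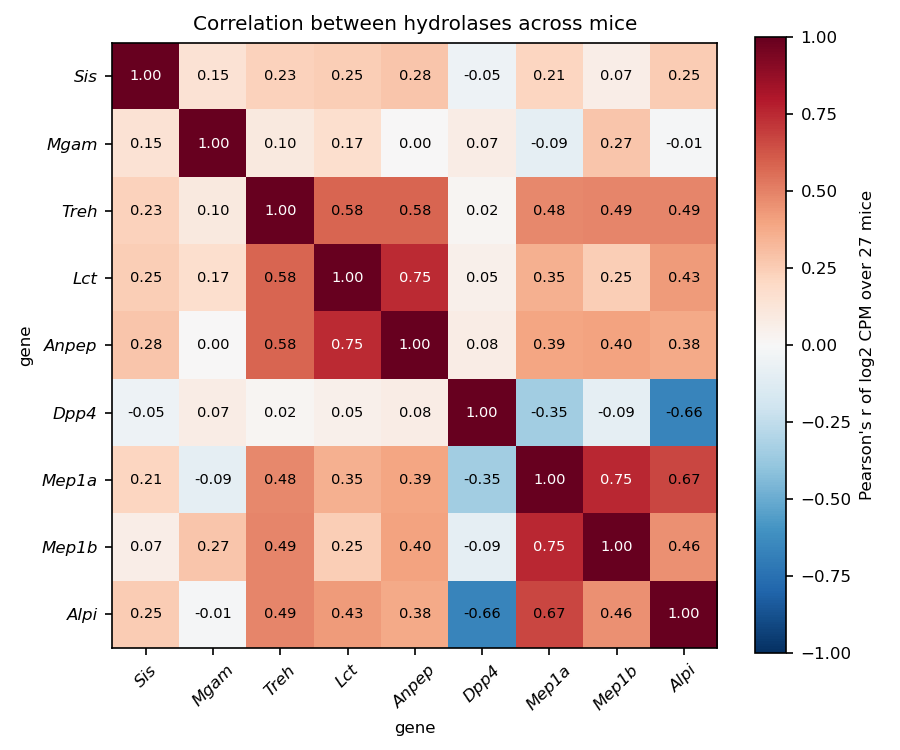
Pearson's r of log2 CPM over 27 mice for each pair of the 9 hydrolases, with red for positive and blue for negative values. Mep1a with Mep1b and Anpep with Lct stand highest at 0.75, and Alpi with Dpp4 stands lowest at -0.66.

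The genes whose log2 CPM followed each hydrolase most closely over the 27 mice are given as a description. Anpep went with Apoa1 (r = 0.94), the main apolipoprotein of high-density lipoprotein, with Slc6a19 (r = 0.91), the brush border carrier of neutral amino acids, and with Mttp (r = 0.89), which loads lipid onto apolipoprotein B. Lct went with Fabp1 (r = 0.90), Slc2a2 (r = 0.88), the glucose carrier GLUT2, and Apoa1 (r = 0.87). Treh went with Tm4sf5 (r = 0.73), Vipas39 (r = 0.73) and Apoc3 (r = 0.73). Mep1a went with Cdhr5 (r = 0.94) and Cdhr2 (r = 0.93), the cadherins that link neighbouring microvilli, and with Aplp1 (r = 0.90). Mgam went with Acat2 (r = 0.85), Cyp51 (r = 0.84) and Idi1 (r = 0.81). Alpi went with Mvp, Mgst3 and Ethe1 (r = 0.86 each), and Mep1b with Erlin1 (r = 0.87), Gramd1b and Irak2 (r = 0.85 each). Sis went with Prss23, Slc7a9 (r = 0.75 each) and Foxj3 (r = 0.74), and Dpp4 with Phc3 (r = 0.77), Zfp26 (r = 0.76) and Zfp456 (r = 0.76).

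Scrapings can come from different stretches of the colon, so each hydrolase was set against a score of 25 tested Hox genes (their first principal component, 62.3% of their variance), whose expression is patterned along the gut. The score was signed so that posterior Hox genes, such as Hoxa13 (0.237) and Hoxb13 (0.227), had a positive mean loading. Hoxa4 (0.114) and Hoxa7 (0.211) loaded positively as well. Of 9 relations, Sis had r = -0.64 (p = 0.00026, adjusted 0.00234) and rho = -0.52 (p = 0.00616, adjusted 0.0554). The r of Sis was -0.46 once the first mouse at 0.03 μg/kg and the third at 0.3 μg/kg, farthest from the middle of the score, were left out, and was -0.82 in the first and -0.20 in the second index set. The other 8 hydrolases had r between -0.16 and 0.32, with p of 0.105 or above by permutation. Within the second index set, which holds all mice at the 3 highest doses, r was 0.63 for Anpep and 0.67 for Dpp4 (n = 11, no test), and without the 2 mice left out above r was 0.39 for Anpep and 0.40 for Mep1b over all other mice. With the score as a covariate Lct, Anpep and Alpi were still called at 30 μg/kg, with log2 fold changes of 3.17, 1.80 and 1.12, in a fit that called 7.99% of all tested genes against 6.16% without the score.

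Companion genes of the same membrane were counted by the same rule, on lists chosen with results of these data known. Of 13 tested other brush border hydrolases, 5 rose at 30 μg/kg and 0 fell, against 2.95% and 3.21% of all tested genes. Their median log2 fold change was 0.94 beside -0.00 for all tested genes. Enpep, which cuts acidic residues from peptides such as angiotensin II, had 8.76, 15.1 and 18.3 CPM in vehicle mice and 31.1, 37.7 and 36.7 CPM at 30 μg/kg (log2 fold change 1.32, SE 0.40, edgeR adjusted p = 0.0369). Enpp3, a nucleotide pyrophosphatase, rose by a log2 fold change of 1.68 (SE 0.52). Enpp7, the alkaline sphingomyelinase of the gut, had 1 count over the 3 vehicle mice and 89 counts at 30 μg/kg. That is a ratio of 71.5 (95% exact binomial interval 12.5 to 2855), where intervals cover counting error only. The 2 most abundant genes of the list, Mgam2-ps and Naaladl1, had log2 fold changes of -0.30 (SE 0.11) and -0.21 (SE 0.32).

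Of 11 brush border transporters of sugars, peptides and amino acids, 5 rose at 30 μg/kg and 1 fell. Of all tested genes 2.95% rose and 3.21% fell, and the median log2 fold change of the 11 was 0.95. Slc6a19 had 2.46, 3.16 and 5.10 CPM in vehicle mice and 11.9, 32.1 and 13.6 CPM at 30 μg/kg (log2 fold change 2.42, SE 0.46, edgeR adjusted p = 0.00172). Slc2a5, the fructose carrier GLUT5, rose by a log2 fold change of 1.46 (SE 0.35) and Slc3a1, a subunit of the cystine carrier, by 1.17 (SE 0.24). Slc2a2 had 3 counts over the vehicle mice and 80 counts at 30 μg/kg, a ratio of 21.4 (95% exact binomial interval 7.07 to 106). Slc5a9, a sodium-dependent sugar carrier, was the gene that fell, by a log2 fold change of -0.89 (SE 0.21). Slc5a1, the sodium-glucose cotransporter SGLT1 and the most abundant of the list, had a log2 fold change of 0.37 (SE 0.10) with an edgeR adjusted p of 0.0178, below the fold threshold, and Slc15a1, the peptide carrier PEPT1, had 0.95 (SE 0.53, edgeR adjusted p = 0.263).

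Of 14 brush border structure genes, 3 rose and 0 fell at 30 μg/kg, against 2.95% and 3.21% of all tested genes. Their median log2 fold change was 0.37, beside -0.00 for all tested genes. Myo1a, the myosin that ties microvillar actin to the membrane, went from 434, 450 and 410 CPM in vehicle mice to 715, 823 and 684 CPM at 30 μg/kg (log2 fold change 0.78, SE 0.12, edgeR adjusted p = 0.000174). Slc9a3r1, a scaffold of the microvillus, rose by a log2 fold change of 0.67 (SE 0.14), and Pdzk1, another scaffold, had 3 counts over the vehicle mice and 51 at 30 μg/kg, a ratio of 13.7 (95% exact binomial interval 4.42 to 68.4). Cdhr5 and Cdhr2, the most abundant, had log2 fold changes of 0.11 (SE 0.11) and 0.15 (SE 0.12). Of 17 enterocyte transcription factors, 1 rose and 1 fell, where 6.16% of all tested genes were called in either direction. Creb3l3, a regulator of lipid genes, had a log2 fold change of 1.77 (SE 0.36, edgeR adjusted p = 0.00293), and Hnf4g, a nuclear receptor of enterocytes, had -1.10 (SE 0.17, edgeR adjusted p = 0.000296). Hnf4a and Klf4, the most abundant, had 0.23 (SE 0.11) and 0.12 (SE 0.18).

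**Figure D5:**
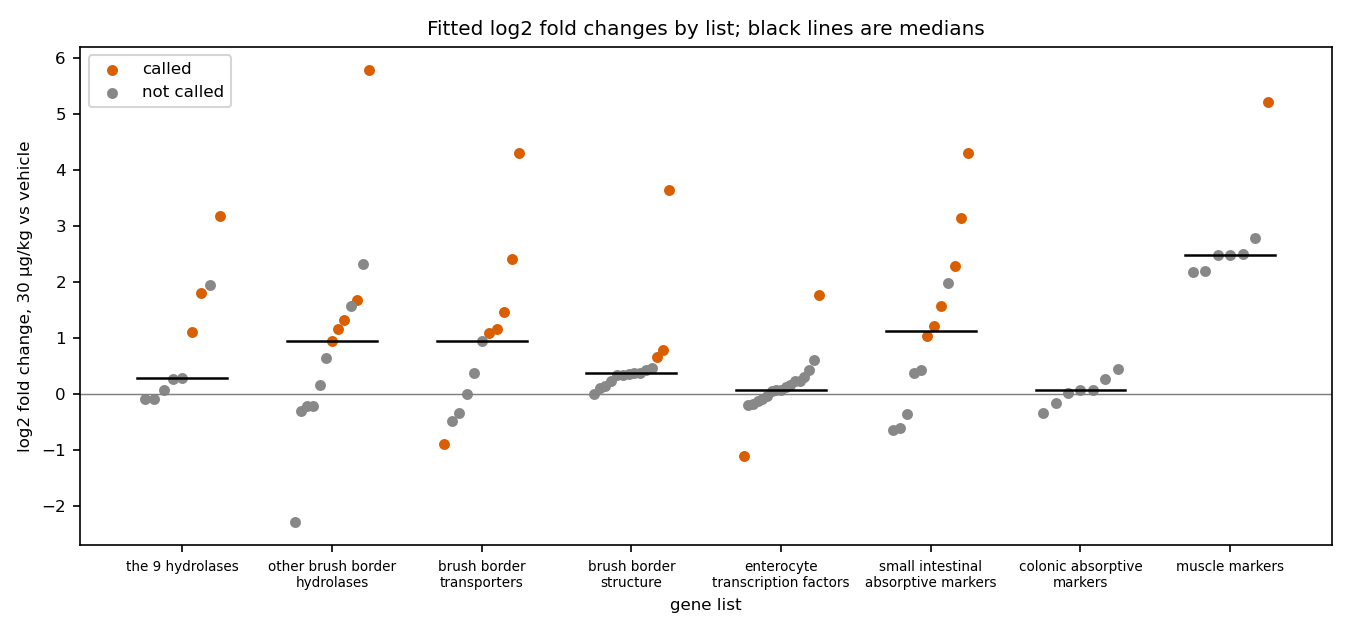
Fitted log2 fold change at 30 μg/kg against vehicle for each tested gene of the 9 hydrolases and of 7 other lists, with orange for called genes and black lines for list medians. The medians are 0.29 for the 9 hydrolases, 0.94 for other brush border hydrolases, 0.95 for transporters and 2.49 for muscle markers, and 0.07 for colonic absorptive markers, of which none is orange.

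Marker genes of other cells were counted at the same dose. Of 12 small intestinal absorptive cell markers 6 rose at 30 μg/kg and 0 fell, against 2.95% and 3.21% of all tested genes. Their median log2 fold change was 1.12, and their summed CPM was 620 to 737 in vehicle mice and 726 to 1130 at 30 μg/kg. Apoa1 had 2.56, 2.85 and 7.17 CPM in vehicle mice and 7.26, 41.4 and 13.2 CPM at 30 μg/kg (log2 fold change 2.29, SE 0.65, edgeR adjusted p = 0.0262), the second mouse being highest as for Lct and Alpi. Mttp rose by a log2 fold change of 1.56 (SE 0.51), and Apoc3 had 3 counts over the vehicle mice and 36 at 30 μg/kg, a ratio of 9.64 (95% exact binomial interval 3.05 to 48.9). The 2 most abundant of the list, Apob and Fabp2, differed, with log2 fold changes of -0.36 (SE 0.24, edgeR adjusted p = 0.360) and 1.21 (SE 0.16, edgeR adjusted p = 6.06e-05). The part of small intestinal cells in the hydrolase changes was not tested.

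Among Paneth cell markers, which mark the small intestine, 1 of 8 tested genes (Itln1) fell and 0 rose, and the 9 markers summed to 6.01 to 32.0 CPM in vehicle mice and 6.03 to 13.5 CPM at 30 μg/kg. Of 7 colonic absorptive markers and 5 epithelium markers 0 were called, where 6.16% of all tested genes were (2.95% higher and 3.21% lower). Of 7 tested muscle markers 1 was called, Acta1, with a log2 fold change of 5.21 (SE 0.26), and the other 6 had log2 fold changes of 2.18 to 2.79 with adjusted p of 0.0614 to 0.0814 in edgeR. The second mouse at 30 μg/kg, which held the most Lct, had the lowest summed muscle markers of its group. All 3 tuft cell markers (Trpm5, Dclk1 and Pou2f3) fell, 2 of 4 adipocyte markers (Cidec and Fabp4) and 1 of 5 fibroblast markers (Dcn) rose, and 0 were called among the T cell, B and plasma cell, myeloid, goblet and endocrine markers. In these bulk samples fewer cells of a type and less RNA per cell cannot be told apart.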

How the data were processed

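RNA-seq libraries from scraped colonic epithelium of 27 mice were analysed. Per the submitters' processing notes, the authors used FastQC 0.11.3, Trimmomatic 0.33, TopHat2 2.1.0, SAMtools 1.2.0 and HTSeq 0.6.1 with GRCm38, and deposited whole-number counts per Ensembl gene for each mouse; the annotation release and strand setting are not given in the sources used here. Gene counts were 9305441 to 14371035 per mouse, beside which reads without a feature made up 29.1% to 33.3%, not uniquely aligned reads 30.7% to 37.1% and ambiguous reads 0.392% to 0.607%. These rows stayed out of library sizes and tests.

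Groups were taken from the labels. Counts were filtered (filterByExpr, minimum count 10), TMM-normalized and tested with edgeR 4.0.16 (quasi-likelihood F-test, all 9 groups in 1 fit, Benjamini-Hochberg adjustment over 16496 genes) in R 4.3.3, as steps tested on simulated data. A call needed an adjusted p under 0.05 and at least a 1.5-fold change. Log2 CPM used a prior count of 2. DESeq2 1.42.0, limma 3.58.1 voom, other scalings and filters, the index set and each left-out mouse were alternatives. Permutation tests used scipy 1.17.1. All 27 pairs of replicates differed beyond sampling noise (chi-square per degree of freedom of at least 5.84).

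The 9 genes and all gene lists were chosen with earlier results of these data known. From each list the text names up to 4 called genes of largest change and the 2 of highest mean CPM, and for each hydrolase the 3 genes of highest r. A called gene among the other hydrolases is not reported here. Genes named with a count of 5 or fewer beyond this rule (Slc5a9, and Akp3 for shared sequence) were chosen after their values were seen. Symbols and positions came from GENCODE M21, promoters from RefSeq on GRCm38.p6.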

Additional observations from a re-analysis of the deposited data

How the results depend on the processing

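No paired analysis was possible because replicate numbers only name mice in accession order. Of the 9 hydrolases, 3 were called at 30 μg/kg with RLE size factors (6.14% of all tested genes), DESeq2 (6.81%), no filter on low counts (3.82%), the Hox score as a covariate (7.99%) or the adjusted p alone (1818 genes). The count was 0 with limma voom (5.10%), 0 with the index set as a term (4.43%), 1 with only the compared groups in the fit (3.93%) and between 0 and 3 when 1 mouse was left out. At 10 μg/kg it was 0, and it was 2 with DESeq2 (2.23%), 2 with no filter (1.18%), 1 with only the compared groups (1.45%) and between 0 and 1 when 1 mouse was left out. The number of slopes was 6, and 0 with the index set as a term and between 4 and 6 when 1 mouse was left out. Settings added after seeing the data gave 0 slopes in the first set, 0 in the second set, and 3 slopes and 0 calls at 30 μg/kg without the third mouse at 10 μg/kg and the second at 30 μg/kg. The pooling of 10 and 30 against 1 and 3 μg/kg in the second set was also added then. The cause of these changes was not tested.

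These log2 values changed sign, among them Lct between 30 and 3 μg/kg (1.80 over all mice) and the Mep1b slope (0.0753, which had passed), which were not near 0. With limma voom, Sis at 30 μg/kg was -0.0443, Treh between 30 and 3 μg/kg -0.0886 and the Mgam slope -0.000245. With the index set as a term, Dpp4 at 10 μg/kg was -0.0819, Sis at 30 μg/kg -0.12 and the Mgam slope -0.0145. With the Hox score, Sis between 30 and 3 μg/kg was 0.25 and its slope 0.0447. The slopes of Sis and Dpp4 were 0.00302 and 0.00497 in the first set, and those of Mgam and Mep1b -0.0734 and -0.0885 in the second. Without the 2 mice named above, Sis was -0.0770 at 10 μg/kg and -0.60 at 30 μg/kg, Dpp4 at 10 μg/kg was -0.0672, and between 30 and 3 μg/kg Treh was -0.54 and Lct -0.00113.

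When 1 mouse was left out, values at 10 μg/kg ran from -0.0770 to 0.39 for Sis and from -0.0672 to 0.18 for Dpp4, and at 30 μg/kg from -0.60 to 0.39 for Sis. Between 30 and 3 μg/kg they ran from -0.74 to 0.25 for Sis, -0.0217 to 0.19 for Mep1a, -0.54 to 0.47 for Treh and -0.0012 to 2.25 for Lct, and slopes from -0.0306 to 0.0141 for Sis and -0.0018 to 0.0071 for Mgam.

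Over all genes, 1016 were called at 30 μg/kg and 648 with only the compared groups. At 10 μg/kg 294 were called, 58 with the index set as a term and 462 with the Hox score. Lct and Treh had as few as 1 count per mouse, which limits both.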
